A study of Homo sapiens with 6 samples.

Results

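The members were the Golgi glycosyltransferases of mucin-type and related glycans, chosen by name: rows beginning GALNT, ST3GAL, ST6GAL, GCNT, B3GNT, B3GALT, B4GALT or FUT, with C1GALT1 and C1GALT1C1, each present once, and without names that end in P or in P and digits. The rule matched 70 rows, 3 of which were left out as pseudogene names, so that 67 of 27238 rows were members. They were measured by mRNA sequencing of QBC-939 cells, given in the labels as a human cholangiocarcinoma (bile duct cancer) line, in 3 libraries from cells that received an shRNA against Bmi1 and 3 control libraries from cells that received a scrambled shRNA, all taken 48 h after treatment. The replicates are described as independent transfections, the control reagent is called siRNA in one place and shRNA in another, and no clone, vector or selection step is given in the sources used here. FPKM, the unit of the table, counts fragments relative to transcript length and to all mapped fragments, so that genes of different length can be compared. BMI1 is a core protein of Polycomb repressive complex 1, which keeps genes silent, and the comparison asked how the mRNA of these cells differs when it is lowered.

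Mucin-type O-glycans are built stepwise in the Golgi. A GALNT enzyme attaches N-acetylgalactosamine (GalNAc) to serine or threonine, which gives the Tn antigen. C1GALT1, which needs its chaperone C1GALT1C1, adds galactose to form core 1, or B3GNT6 adds N-acetylglucosamine (GlcNAc) to form core 3. GCNT enzymes then branch the core, B3GNT and B4GALT enzymes lengthen it, and sialyltransferases (ST3GAL, ST6GAL, ST6GALNAC) and fucosyltransferases (FUT) cap it, often ending further growth. Ductal and intestinal epithelia coat their surface with such chains, and several of the capped structures, among them sialyl-Tn and sialyl Lewis a, are known as carcinoma antigens.

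The libraries carried the knockdown that their labels give. BMI1 had 1.49, 1.19 and 2.65 FPKM in Bmi1 shRNA libraries, against 6.65, 5.34 and 6.09 FPKM in control libraries (limma test of log2(FPKM + 1), adjusted p = 0.00162 by Benjamini-Hochberg; exact two-sided permutation p = 0.1, the smallest that 3 against 3 libraries allow). Ductal markers were present in all libraries, with KRT19 at 211 ± 14.2 FPKM in Bmi1 shRNA cells and 287 ± 6.98 FPKM in control cells (SD, n = 3 each), although KRT7 was at 2.80 ± 0.695 and 2.74 ± 0.0356 FPKM. Of the intestinal markers, LGALS4 was abundant (568 ± 13.3 FPKM with Bmi1 shRNA, 397 ± 4.02 FPKM in control), VIL1 was lower with Bmi1 shRNA (17.9 ± 1.40 and 21.1 ± 1.04 FPKM, limma adjusted p = 0.0372), and CDX2 averaged 0.0684 and 0.0800 FPKM and CDH17 0.00537 and 0.0160 FPKM. Of 4 hepatocyte markers 3 had rows, summing to between 228 and 240 FPKM with Bmi1 shRNA and between 156 and 166 FPKM in control. Of 4 immune markers LYZ and CD68 had rows, with LYZ at 1532 ± 32.5 FPKM with Bmi1 shRNA and 1468 ± 50.9 FPKM in control (limma adjusted p = 0.258). CD68 fell, to 7.53 ± 0.812 FPKM with Bmi1 shRNA, against 11.5 ± 0.449 FPKM in control (adjusted p = 0.00198). The part of these differences in the results below was not tested. The rows for fibroblast markers (2 of 5), endothelial markers (2 of 3) and adipocyte markers (1 of 3) summed to at most 0.445, 0.0360 and 0.403 FPKM in any library. In bulk RNA, fewer cells of a type and less RNA per cell cannot be told apart.

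Transcripts of 41 members averaged at least 1 FPKM over the 6 libraries and were tested, and 26 lay below. Of the 41, 9 rose and 15 fell with Bmi1 shRNA at an adjusted p under 0.05, and 17 did not pass. Over all 11016 tested rows 57.1% were called, 28.6% higher and 28.5% lower, so that the share of these enzymes called, 24 of 41, lay close to the background. Their median log2 fold change was -0.04, against -0.02 over all tested rows. A log2 fold change of at least 0.5 upward was reached by 3 called members (14.5% of all tested rows), and one of at least 0.5 downward by 9 (8.86% of all tested rows). The changes ran from -0.94 for ST3GAL1 to 0.87 for GALNT3 among called members. The groups did not overlap in 10 members that were higher and 17 that were lower with Bmi1 shRNA; over all tested rows 65.4% did not overlap, 32.3% higher and 33.1% lower. The plot of single library values sets out all 41.

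**Figure D1:**
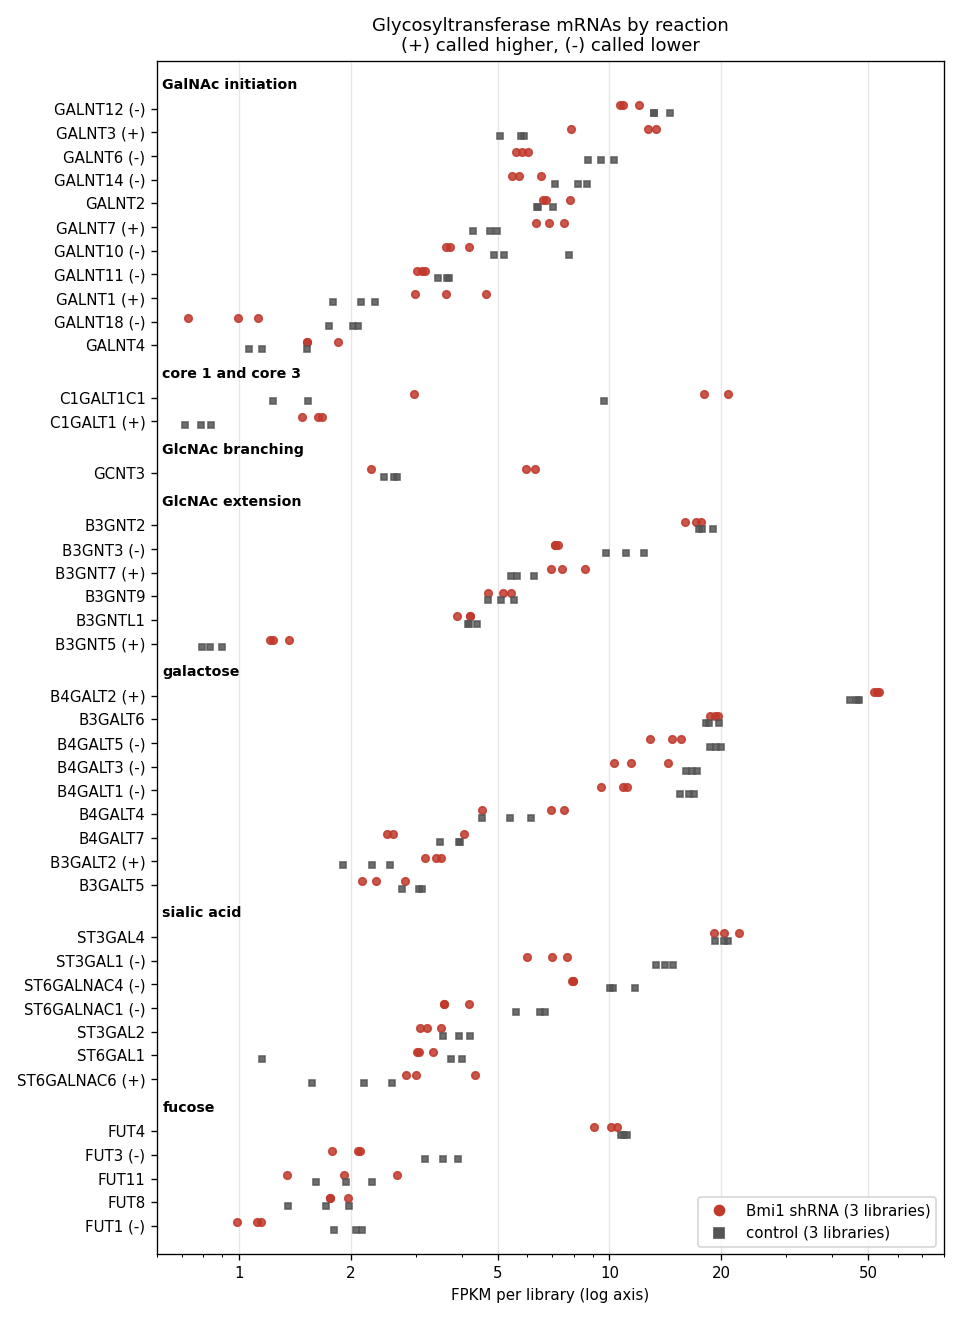
FPKM in each library (log axis) for the 41 tested members, grouped by reaction and ordered by mean, with Bmi1 shRNA libraries as circles drawn above control libraries as squares. B4GALT2 is the most abundant, near 50 FPKM, and ST3GAL1 shows the widest gap among falls, with Bmi1 shRNA libraries from 5.97 to 7.70 FPKM and control libraries from 13.4 to 14.9 FPKM.

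Across the whole table the direction of change went with the GC content of the transcript, and the members did the same. Over 10264 tested rows with a known transcript, GC content and log2 fold change had a Pearson's r of -0.438 and a Spearman's rho of -0.473. Over the 41 members they were -0.503 and -0.439. Both are taken across genes of the same 6 libraries, so the points are not independent and no p is given. The 9 members that rose had a median GC content of 38.8%, the 15 that fell 52.5%, and the 17 not called 50.2%. With the trend in GC content and transcript length removed from each library, 9 members were higher and 10 lower. Over all rows 39.7% were then called, 19.1% higher and 20.6% lower. Of the 24 called members, 12 were called in the same direction after that step, 10 kept their sign without passing, B3GALT2 took the opposite sign without passing, and B3GNT5 was called in the opposite direction. A real change shared by transcripts of like GC content or length is removed by that step too, and the part of the trend in any single result was not tested. The value with the trend removed is therefore given beside each gene whose call it ends or turns.

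**Figure D2:**
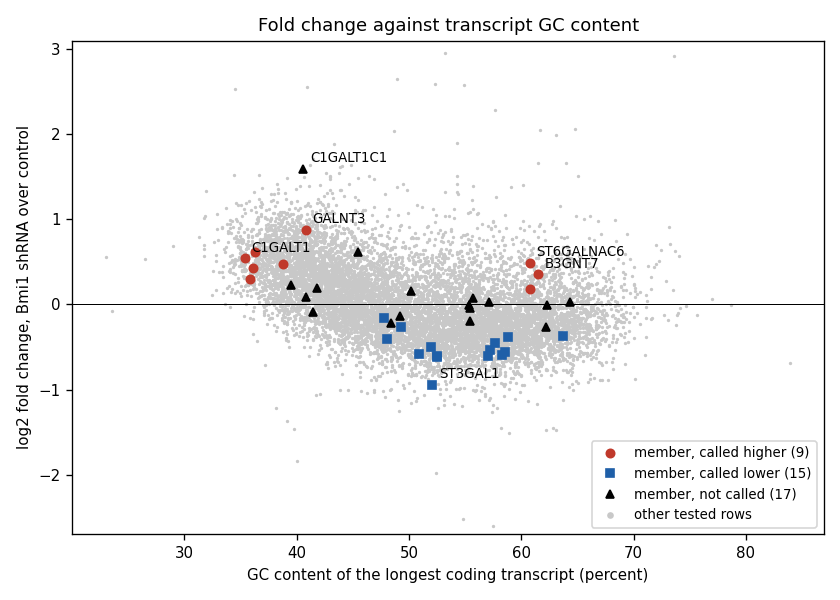
Log2 fold change of FPKM + 1, Bmi1 shRNA over control (vertical), against GC content of the longest coding transcript in percent (horizontal), for all tested rows with a known transcript (grey) and the 41 tested members, by call. Of the 9 members that rose, 6 lie below 41% GC, while B4GALT2, ST6GALNAC6 and B3GNT7 lie above 60% GC.

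Sequence at the start of these genes was looked at because Polycomb complexes in mammalian cells are known to sit at promoters rich in CpG. RefSeq windows (GRCh38.p14) were found for 48 of the 67 members, 78 windows in all since some genes have several starts, and the 250 bases before each start were read. The median number of CpG sites per window was 21.5 over 14 windows of the members that rose, 21 over 15 windows of those that fell, 24.5 over 18 windows of tested members not called, and 11 over all 35116 windows in the reference table. The GC box GGGCGG, read on either strand, was in 71.4% of windows of members that rose and 73.3% of those that fell. It was in 61.1% of windows of tested members not called, 61.5% of all member windows and 42.6% of all windows in the reference table. TATAAA was in 2 of the 78 windows (2.56%; 10.7% of all windows), and CACGTG in 7 (8.97%; 6.34% of all). A match describes letters only, and no match says only that these letters are not in the window. Of 13 called members with a single window in the table, 6 had one that overlapped GENCODE 29 exons by more than 30 bases, GALNT3 among them, and these are not shown. The windows below belong to the 2 largest rises and 2 largest falls among the rest, with GC boxes in capitals. They lie at chr7:7182294-7182543 (plus strand) for C1GALT1, chr3:183253003-183253252 (plus strand) for B3GNT5, chr19:5851450-5851699 (minus strand) for FUT3 and chr19:17794888-17795137 (plus strand) for B3GNT3. C1GALT1 has 21 CpG sites there, B3GNT5 25, FUT3 8 and B3GNT3 16. The starts are those of RefSeq. In GENCODE 29 the C1GALT1 and B3GNT3 windows lie inside the span of their gene, and those of B3GNT5 and FUT3 partly inside it.
C1GALT1: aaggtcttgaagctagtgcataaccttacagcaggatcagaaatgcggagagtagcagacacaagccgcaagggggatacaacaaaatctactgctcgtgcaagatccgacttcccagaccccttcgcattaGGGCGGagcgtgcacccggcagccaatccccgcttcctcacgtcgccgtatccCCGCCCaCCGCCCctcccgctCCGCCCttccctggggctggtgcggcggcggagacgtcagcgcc
B3GNT5: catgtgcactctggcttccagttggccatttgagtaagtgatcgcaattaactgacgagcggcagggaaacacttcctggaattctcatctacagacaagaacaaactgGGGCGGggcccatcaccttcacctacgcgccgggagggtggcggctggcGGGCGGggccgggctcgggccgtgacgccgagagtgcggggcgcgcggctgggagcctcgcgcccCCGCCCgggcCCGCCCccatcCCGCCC
FUT3: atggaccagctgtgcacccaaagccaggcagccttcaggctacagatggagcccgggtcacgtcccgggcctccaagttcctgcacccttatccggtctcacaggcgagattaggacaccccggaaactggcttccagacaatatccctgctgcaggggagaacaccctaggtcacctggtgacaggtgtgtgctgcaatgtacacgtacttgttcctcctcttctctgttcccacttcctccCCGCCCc
B3GNT3: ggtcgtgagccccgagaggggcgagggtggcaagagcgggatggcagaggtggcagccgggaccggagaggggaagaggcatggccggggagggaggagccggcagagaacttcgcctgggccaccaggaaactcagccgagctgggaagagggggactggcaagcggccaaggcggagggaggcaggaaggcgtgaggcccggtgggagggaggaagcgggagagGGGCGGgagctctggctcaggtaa

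Enzymes that start the O-glycan changed in both directions. Of 17 GALNT members 11 were tested, of which 3 rose (27.3%), 6 fell (54.5%) and 2 did not pass, with a median log2 fold change of -0.16. Over all tested rows 28.6% rose and 28.5% fell. With the GC trend removed 2 were higher and 2 lower, where 19.1% of all rows were higher and 20.6% lower. GALNT3, which among other proteins glycosylates the hormone FGF23, had 7.88, 12.7 and 13.3 FPKM in Bmi1 shRNA libraries, against 5.06, 5.77 and 5.88 FPKM in control libraries. The groups did not overlap, and Bmi1 shRNA replicate 1 was well below the other two. It rose (log2 fold change 0.87, standard error 0.18, limma adjusted p = 0.00743), and the log2 fold change was 0.57 with the GC trend removed (adjusted p = 0.0499). GALNT6, its close relative in sequence, went the other way, with 5.82, 5.58 and 6.03 FPKM in Bmi1 shRNA libraries, against 9.47, 10.3 and 8.72 FPKM in control libraries. All 3 Bmi1 shRNA values lay below all control values, and GALNT6 fell (log2 fold change -0.62, standard error 0.07, limma adjusted p = 0.000889). The ratio of GALNT3 to GALNT6, chosen after their values were seen, was 1.35, 2.27 and 2.21 with Bmi1 shRNA and 0.534, 0.561 and 0.674 in control.

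The other GALNT rises were in transcripts of low GC content. GALNT1, one of the most widely expressed members of the family, had 3.61, 4.65 and 2.98 FPKM in Bmi1 shRNA libraries, against 1.80, 2.13 and 2.33 FPKM in control libraries (log2 fold change 0.61, limma adjusted p = 0.00974). GALNT7, which prefers peptides that already carry GalNAc, had 6.34, 6.88 and 7.52 FPKM with Bmi1 shRNA and 4.98, 4.76 and 4.28 FPKM in control (log2 fold change 0.48, adjusted p = 0.00320). The groups did not overlap for either gene. Neither was called with the GC trend removed, where the log2 fold changes were 0.11 (adjusted p = 0.564) and 0.09 (adjusted p = 0.308); the transcripts have 36.3% and 38.8% GC.

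GALNT18 and GALNT12 fell, as did GALNT14, GALNT10 and GALNT11. GALNT18 had 0.993, 0.728 and 1.12 FPKM in Bmi1 shRNA libraries, against 1.74, 2.09 and 2.03 FPKM in control libraries (log2 fold change -0.61, standard error 0.10, limma adjusted p = 0.00275), and it stayed called with the GC trend removed (-0.37, adjusted p = 0.0133). It passed the limit for testing through its control libraries, as its Bmi1 shRNA mean was 0.948 FPKM. GALNT12, the most abundant GALNT here and one in which inherited variants have been linked with colorectal cancer, had 10.9, 12.03 and 10.7 FPKM with Bmi1 shRNA and 13.2, 14.6 and 13.2 FPKM in control (log2 fold change -0.26, adjusted p = 0.0192). GALNT14, known for glycosylating death receptors, averaged 5.89 ± 0.572 FPKM with Bmi1 shRNA and 8.01 ± 0.800 FPKM in control. GALNT10 had 3.62, 3.70 and 4.17 FPKM with Bmi1 shRNA and 4.87, 5.20 and 7.79 FPKM in control, with control replicate 3 apart from the rest. With the GC trend removed none of GALNT12, GALNT14, GALNT10 and GALNT11 was called (adjusted p from 0.2002 to 0.4996). Leaving out 1 library ended the call of GALNT12 without Bmi1 shRNA replicate 1 or 3 or control replicate 2 (adjusted p up to 0.0616), of GALNT10 without any 1 of the Bmi1 shRNA libraries (up to 0.0864), and of GALNT11 without any 1 of the 6 libraries (up to 0.134). The log2 fold change of GALNT10 was -0.32 without control replicate 3, against -0.50 with it.

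GALNT2, the other widely expressed member, had 6.61, 6.73 and 7.82 FPKM with Bmi1 shRNA and 6.37, 7.04 and 6.42 FPKM in control, and was not called (adjusted p = 0.421); with the GC trend removed it was (log2 fold change 0.42, adjusted p = 0.00214). GALNT4 was not called either (log2 fold change 0.23, adjusted p = 0.0859, or 0.0288 without control replicate 1). Its span lies within those of POC1B and of a readthrough gene that joins them, so reads of these cannot be told apart. The 6 untested GALNT members averaged at most 0.130 FPKM. The summed FPKM of all GALNT members was 61.6 ± 4.88 with Bmi1 shRNA and 62.9 ± 2.88 in control (SD, n = 3 each). The sums overlapped, while the shares of most tested GALNT members in them did not. The shares without overlap were those of GALNT3, GALNT6, GALNT12, GALNT14, GALNT7, GALNT10, GALNT1 and GALNT18. For FPKM itself, the groups did not overlap in 65.4% of all tested rows. Shares are taken from values as deposited, and as parts of a whole they depend on each other. The shares of GALNT2, GALNT11 and GALNT4 overlapped. GALNT3 made up 18.1% ± 3.54 of that sum with Bmi1 shRNA and 8.84% ± 0.340 in control. GALNT6 made up 9.47% ± 0.822 with Bmi1 shRNA and 15.1% ± 1.31 in control.

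**Figure D3:**
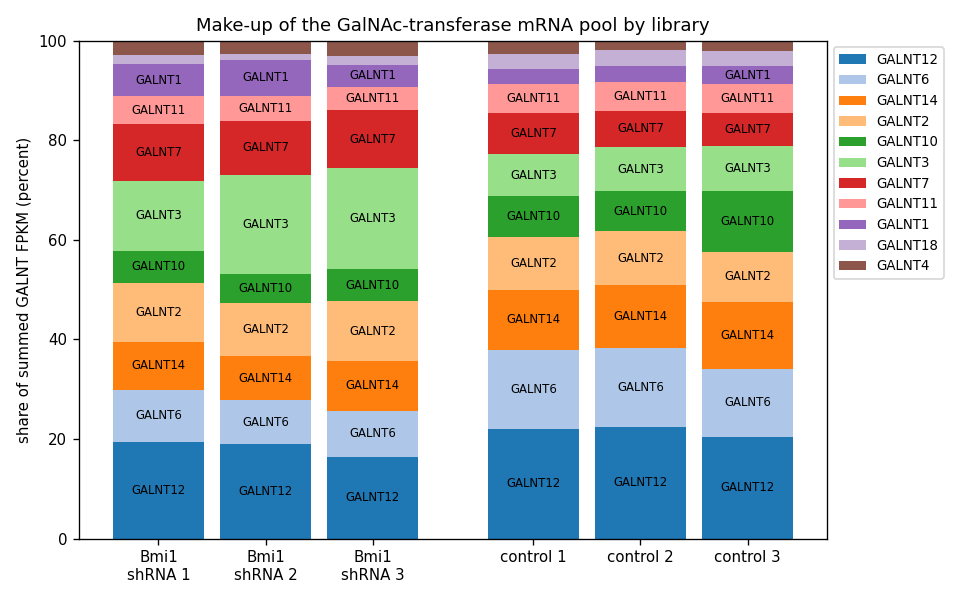
Share of the summed GALNT FPKM held by each of the 11 tested GALNT members, as stacked bars for each Bmi1 shRNA library (left) and each control library (right), in percent. The GALNT3 band is wider in all Bmi1 shRNA libraries and the GALNT6 and GALNT12 bands are narrower.

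The next step, which commits the chain to core 1, rose at its enzyme. C1GALT1, the core 1 synthase, had 1.63, 1.68 and 1.47 FPKM in Bmi1 shRNA libraries, against 0.714, 0.789 and 0.837 FPKM in control libraries. The groups were far apart relative to their spread, at 2.04-fold in mean FPKM (log2 fold change 0.54, standard error 0.07, limma adjusted p = 0.00104). The control mean of 0.780 FPKM lay below the limit for testing, which C1GALT1 passed through its Bmi1 shRNA libraries (mean 1.59 FPKM). With no filter on low values it was also called (limma adjusted p = 0.00443). C1GALT1 has the lowest GC content of the tested members, 35.4%, and with the GC trend removed its log2 fold change was 0.11 and not called (adjusted p = 0.241). C1GALT1C1, the chaperone without which C1GALT1 is not folded, had 2.97, 21.0 and 18.0 FPKM with Bmi1 shRNA and 1.54, 1.23 and 9.66 FPKM in control. The 6 values fell into a low and a high set that cut across the groups, with Bmi1 shRNA replicate 1 low and control replicate 3 high. The gene was not called (log2 fold change 1.59, standard error 0.84, adjusted p = 0.149), and was called without Bmi1 shRNA replicate 1 (2.38, adjusted p = 0.0363) or without control replicate 3 (2.31, adjusted p = 0.0495). B3GNT6, the core 3 synthase of intestinal epithelium, lay below the limit for testing but had 0.375, 0.211 and 0.315 FPKM with Bmi1 shRNA and 0.0191, 0.0525 and 0.0400 FPKM in control. All 3 Bmi1 shRNA libraries were above all control libraries, and in a fit with no filter on low values B3GNT6 was called (log2 fold change 0.32, standard error 0.05, adjusted p = 0.00818).

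Branching enzymes were few in these cells. GCNT3, the mucin-type enzyme that makes core 2, core 4 and I branches, had 2.26, 6.31 and 5.97 FPKM with Bmi1 shRNA and 2.46, 2.67 and 2.62 FPKM in control. Bmi1 shRNA replicates 2 and 3 were above every control library and replicate 1 was below them, so that GCNT3 was not called (log2 fold change 0.62, standard error 0.30, limma adjusted p = 0.122). Without Bmi1 shRNA replicate 1 it was, at 0.99 (adjusted p = 0.00190). Bmi1 shRNA replicate 1 was the lowest of its group in C1GALT1C1 and GALNT3 too, as it was in other tested members, among them GALNT7, B4GALT2 and ST3GAL4. GCNT2, the I-branching enzyme, averaged 0.738 ± 0.0502 FPKM with Bmi1 shRNA and 0.619 ± 0.0608 FPKM in control, and GCNT1, the general core 2 enzyme, 0.108 ± 0.0228 and 0.239 ± 0.164 FPKM; neither was tested. GCNT4 stayed under 0.02 FPKM.

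Enzymes that add GlcNAc to lengthen the chain split between a fall in B3GNT3 and rises in B3GNT7 and B3GNT5. B3GNT3, which extends core 1, had 7.28, 7.10 and 7.11 FPKM in Bmi1 shRNA libraries, against 9.76, 11.1 and 12.4 FPKM in control libraries (log2 fold change -0.56, standard error 0.09, limma adjusted p = 0.00242). The Bmi1 shRNA values were nearly equal and all below control. B3GNT7, which builds the chains of keratan sulfate and poly-N-acetyllactosamine, had 7.46, 6.96 and 8.59 FPKM with Bmi1 shRNA and 5.43, 6.27 and 5.61 FPKM in control (log2 fold change 0.35, adjusted p = 0.0151). At 61.5% GC its rise ran against the trend, and it was larger with the trend removed (0.66, adjusted p = 0.000841). B3GNT5, which starts the lacto-series glycolipids, had 1.23, 1.21 and 1.36 FPKM with Bmi1 shRNA and 0.897, 0.833 and 0.794 FPKM in control (log2 fold change 0.30, adjusted p = 0.00747), but was lower with the trend removed (-0.20, adjusted p = 0.0246). It passed the limit for testing through its Bmi1 shRNA libraries, as its control mean was 0.841 FPKM. B3GNT2, the main poly-N-acetyllactosamine synthase and the most abundant of the group, had 15.98, 17.1 and 17.7 FPKM with Bmi1 shRNA and 19.0, 17.7 and 17.4 FPKM in control. It was not called as deposited (log2 fold change -0.09, adjusted p = 0.263) and was lower with the trend removed (-0.42, adjusted p = 0.00223). B3GNT9 (5.10 ± 0.370 FPKM with Bmi1 shRNA, 5.11 ± 0.413 FPKM in control) and B3GNTL1 (4.09 ± 0.183 and 4.23 ± 0.134 FPKM) differed by less than the spread between replicates as deposited. B3GNT9 was called higher with the GC trend removed (log2 fold change 0.26, limma adjusted p = 0.0120).

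Galactosyltransferases fell in 3 of 9 tested members (33.3%) and rose in 2 (22.2%), shares near the 28.5% and 28.6% of all tested rows. B4GALT1, the major enzyme that adds galactose to terminal GlcNAc and the catalytic part of lactose synthase, had 10.9, 9.49 and 11.1 FPKM in Bmi1 shRNA libraries, against 15.5, 16.3 and 16.9 FPKM in control libraries. The groups did not overlap (log2 fold change -0.59, standard error 0.07, limma adjusted p = 0.00120), and the gene stayed called with the GC trend removed (-0.31, adjusted p = 0.00686). B4GALT5, a lactosylceramide synthase, had 15.6, 12.9 and 14.7 FPKM with Bmi1 shRNA and 18.6, 19.3 and 20.05 FPKM in control (log2 fold change -0.41, adjusted p = 0.00558; with the trend removed -0.20, adjusted p = 0.0577). B4GALT3 had 10.3, 14.4 and 11.4 FPKM with Bmi1 shRNA and 16.7, 16.1 and 17.3 FPKM in control (log2 fold change -0.45, adjusted p = 0.0167). Its call ended without control replicate 3 (adjusted p = 0.0529) and with the trend removed (adjusted p = 0.175), and its span overlaps that of PPOX on the other strand.

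B4GALT2, a relative of B4GALT1 with the same reaction, rose and was the most abundant of all members. It had 51.7, 52.9 and 53.5 FPKM with Bmi1 shRNA and 46.7, 44.8 and 47.1 FPKM in control (log2 fold change 0.19, standard error 0.05, limma adjusted p = 0.0165). The rise was small, and the call ended without control replicate 2 (0.16, adjusted p = 0.0565), with libraries scaled to one total (0.10, adjusted p = 0.143) and with quantile normalization (0.10, adjusted p = 0.0873). With the GC trend removed it was 0.43 (adjusted p = 0.00159). The ratio of B4GALT1 to B4GALT2, chosen after their values were seen, was 0.211, 0.179 and 0.208 with Bmi1 shRNA and 0.332, 0.365 and 0.359 in control. B3GALT2 had 3.40, 3.501 and 3.17 FPKM with Bmi1 shRNA and 2.55, 2.28 and 1.91 FPKM in control (log2 fold change 0.43, adjusted p = 0.00668), with -0.11 and no call once the trend was removed (adjusted p = 0.286). It lies opposite the gene CDC73, which rose as well (log2 fold change 0.29, limma adjusted p = 0.0152). Without known strand the reads of the pair cannot be told apart. Spans of further members overlap those of other genes. GALNT6 overlaps SLC4A8, GCNT3 overlaps GTF2A2 and B3GNT5 overlaps MCF2L2 on the other strand. GALNT10 overlaps MFAP3, GALNT18 overlaps CSNK2A3 and FUT4 overlaps PIWIL4 on the same strand.

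B3GALT5, which makes the type 1 chains that carry Lewis a, had 2.33, 2.14 and 2.81 FPKM with Bmi1 shRNA and 2.76, 3.12 and 3.05 FPKM in control, and was not called (log2 fold change -0.22, limma adjusted p = 0.0760). It was called without Bmi1 shRNA replicate 3 (-0.30, adjusted p = 0.0209), with libraries scaled to one total (adjusted p = 0.0415) and with quantile normalization (0.0284). B3GALT6 and B4GALT7 add the galactoses of the linker that joins proteoglycan chains to protein. B3GALT6 had 18.7, 19.3 and 19.6 FPKM with Bmi1 shRNA and 18.2, 18.6 and 19.8 FPKM in control, a difference within the spread (adjusted p = 0.727; 0.26 and called with the trend removed, adjusted p = 0.00767). B4GALT7 averaged 3.05 ± 0.867 and 3.79 ± 0.265 FPKM and was called only when Bmi1 shRNA replicate 1 was left out (-0.43, adjusted p = 0.00920). B4GALT4 averaged 6.34 ± 1.61 FPKM with Bmi1 shRNA and 5.35 ± 0.794 FPKM in control, with Bmi1 shRNA replicate 3 the lowest of the 6, and was called without that library (0.38, adjusted p = 0.0398).

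Among sialyltransferases, 3 of 7 tested members fell (42.9%) and 1 rose (14.3%), or 3 and 2 with the GC trend removed. Over all tested rows 28.5% fell and 28.6% rose, or 20.6% and 19.1% with that trend removed. ST3GAL1, which caps core 1 with sialic acid and so stops its branching, fell the furthest of all called members, with 6.99, 5.97 and 7.70 FPKM in Bmi1 shRNA libraries against 13.4, 14.9 and 14.1 FPKM in control libraries. That is 0.488 of control in mean FPKM (log2 fold change -0.94, standard error 0.09, limma adjusted p = 0.000559), and -0.56 with the GC trend removed (adjusted p = 0.00113). ST6GALNAC1, the sialyl-Tn synthase, which acts on the same Tn acceptor as C1GALT1, had 4.17, 3.57 and 3.57 FPKM with Bmi1 shRNA and 6.70, 5.61 and 6.48 FPKM in control. The groups did not overlap (log2 fold change -0.61, standard error 0.09, adjusted p = 0.00178; with the trend removed -0.40, adjusted p = 0.0130). The ratio of C1GALT1 to ST6GALNAC1, chosen after their values were seen, was 0.390, 0.470 and 0.413 with Bmi1 shRNA and 0.107, 0.141 and 0.129 in control. These ratios are as deposited, and C1GALT1 was not called with the trend removed (log2 fold change 0.11, limma adjusted p = 0.241). ST6GALNAC4, which adds a further sialic acid to sialylated core 1, had 7.94, 7.96 and 7.97 FPKM with Bmi1 shRNA and 10.0, 11.7 and 10.2 FPKM in control (log2 fold change -0.37, adjusted p = 0.00459; with the trend removed -0.35, adjusted p = 0.00737).

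ST6GALNAC6, which sialylates gangliosides and makes disialyl Lewis a, had 3.01, 4.33 and 2.81 FPKM with Bmi1 shRNA and 1.57, 2.58 and 2.17 FPKM in control. It was the sole sialyltransferase called higher among those tested (log2 fold change 0.49, standard error 0.17, limma adjusted p = 0.0444), and it lies 2477 bases from ST6GALNAC4 on chromosome 9 (GENCODE 29, GRCh38). The call ended without Bmi1 shRNA replicate 1 or 2 or control replicate 1 or 3 (adjusted p up to 0.114), with libraries scaled to one total (0.0698) and with quantile normalization (0.0669). ST3GAL4, which caps N-acetyllactosamine chains and was the most abundant sialyltransferase, had 19.1, 20.3 and 22.3 FPKM with Bmi1 shRNA and 20.4, 20.8 and 19.2 FPKM in control, within the spread (adjusted p = 0.762). ST3GAL2, which acts on core 1 and gangliosides, averaged 3.26 ± 0.224 and 3.89 ± 0.334 FPKM (log2 fold change -0.20, adjusted p = 0.0626). It was called lower without control replicate 1 (-0.25, adjusted p = 0.0432), with libraries scaled to one total (0.0306) or with quantile normalization (0.0234), and higher with the GC trend removed (0.24, adjusted p = 0.0114). ST6GAL1, the enzyme that sialylates N-glycans, had 3.03, 3.06 and 3.33 FPKM with Bmi1 shRNA and 4.004, 1.15 and 3.72 FPKM in control. Control replicate 2 alone set its direction: the log2 fold change was 0.16 with that library (adjusted p = 0.685) and -0.23 without it (adjusted p = 0.0501).

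Of the fucosyltransferases 2 of 5 tested members fell (40%) and none rose, or 1 and 1 with the GC trend removed. Over all tested rows 28.5% fell and 28.6% rose, or 20.6% and 19.1% after that step. FUT3, the Lewis enzyme, had 1.78, 2.12 and 2.09 FPKM in Bmi1 shRNA libraries, against 3.18, 3.91 and 3.55 FPKM in control libraries (log2 fold change -0.60, standard error 0.09, limma adjusted p = 0.00173; with the GC trend removed -0.36, adjusted p = 0.00968). FUT3 lies beside its near-copies FUT5 and FUT6 on chromosome 19, so reads could be split between them. FUT5 and FUT6 had at most 0.0924 and 0.178 FPKM with Bmi1 shRNA and at most 0.162 and 0.123 FPKM in control. FUT1, which makes the H antigen, had 0.983, 1.14 and 1.11 FPKM with Bmi1 shRNA and 1.80, 2.07 and 2.14 FPKM in control (log2 fold change -0.53, adjusted p = 0.00155; with the trend removed -0.19, adjusted p = 0.0587). FUT2, the secretor enzyme and the neighbour of FUT1, lay below the limit at 0.448, 0.526 and 0.549 FPKM with Bmi1 shRNA and 0.746, 0.787 and 0.788 FPKM in control. It was called in the fit with no filter (log2 fold change -0.23, adjusted p = 0.0311). FUT4, which adds fucose to inner GlcNAc residues and was the most abundant, had 10.1, 9.08 and 10.5 FPKM with Bmi1 shRNA and 10.9, 11.2 and 10.7 FPKM in control. Its groups did not overlap and it was not called (log2 fold change -0.13, adjusted p = 0.130; with the trend removed 0.17, adjusted p = 0.0283). FUT8, the core fucosyltransferase of N-glycans, had 1.76, 1.96 and 1.76 FPKM with Bmi1 shRNA and 1.35, 1.71 and 1.97 FPKM in control, within the spread. FUT11 averaged 1.98 ± 0.663 FPKM with Bmi1 shRNA and 1.95 ± 0.336 FPKM in control, also within the spread.

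**Figure D4:**
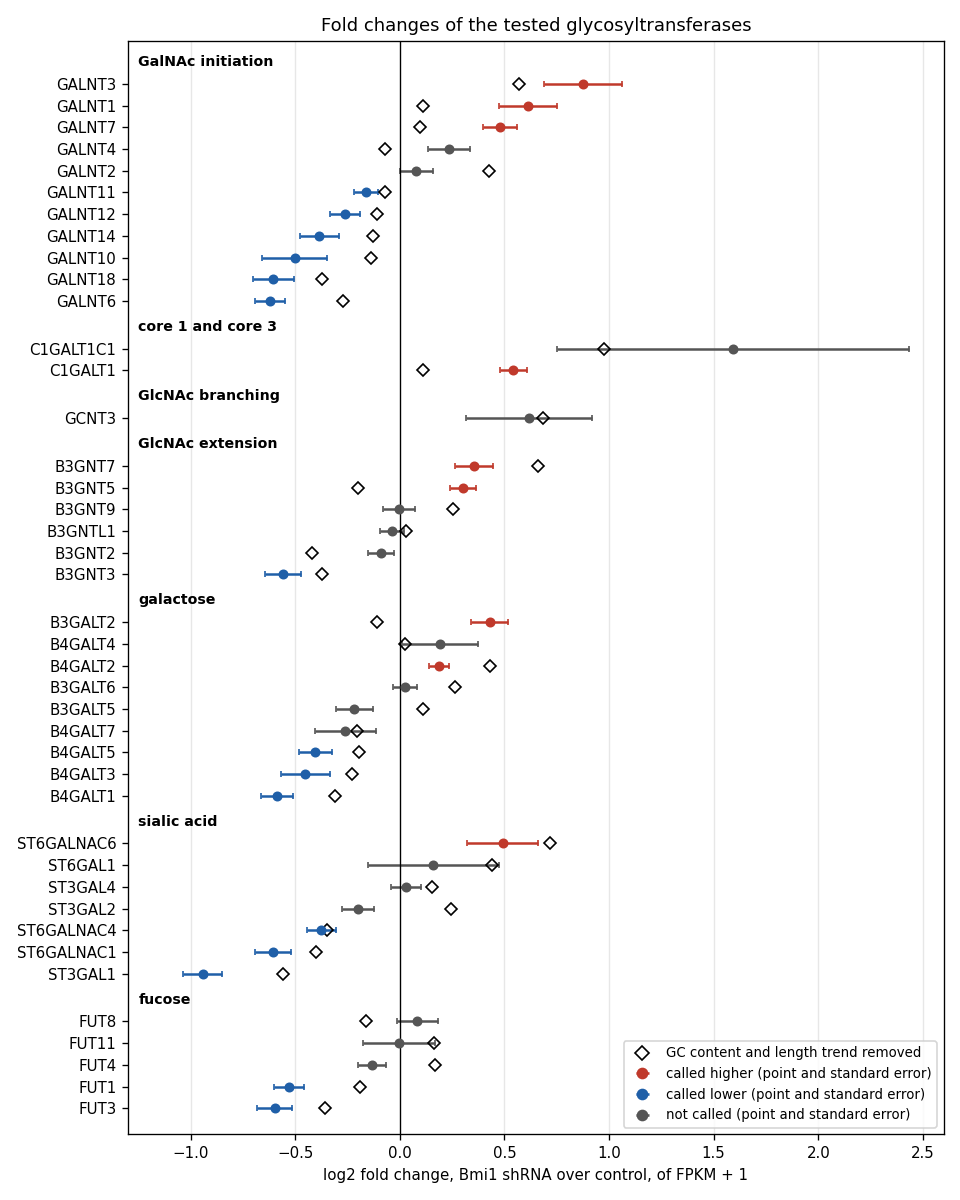
Log2 fold change of FPKM + 1, Bmi1 shRNA over control, for the 41 tested members by reaction, as points with their standard error coloured by call, and as open diamonds with the trend in GC content and length removed. ST3GAL1 is at -0.94 and GALNT3 at 0.87, and C1GALT1C1 has the widest standard error, 0.84.

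Below the limit for testing, 26 members averaged between 0.000746 and 0.910 FPKM, and 7 of them were listed at 0 in at least 1 library. The groups did not overlap in 6 of the 26 (23.1%), against 18.2% of all rows below the limit. B3GNT6, GCNT2 and B3GALT4, which acts on gangliosides (0.542 ± 0.111 FPKM with Bmi1 shRNA, 0.330 ± 0.0559 FPKM in control), were above control. FUT2, ST3GAL3 (0.228 ± 0.0383 and 0.325 ± 0.00783 FPKM) and ST6GALNAC2 (0.752 ± 0.0370 and 1.07 ± 0.174 FPKM) were below it. B3GNT6 and FUT2 alone of the 26 were called in the fit with no filter, where 7.4% of all rows below the limit were. ST6GALNAC2 is the neighbour of ST6GALNAC1, with 37804 bases between them on chromosome 17. B3GNT10, at 0.301 ± 0.110 and 0.427 ± 0.162 FPKM, was placed in no reaction.

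Summed FPKM of the capping enzymes was lower in all 3 Bmi1 shRNA libraries as deposited, and less so or not at all once the GC trend was removed. Sialyltransferases summed to 48.5, 49.4 and 52.4 FPKM with Bmi1 shRNA and 61.1, 62.3 and 61.6 FPKM in control, and fucosyltransferases to 18.5, 17.1 and 18.9 and to 20.8, 22.7 and 22.5 FPKM. In both reactions the Bmi1 shRNA libraries lay below all control libraries, also with libraries scaled to one total or to one upper quartile. The ratio of means was 0.813 for sialic acid (0.764 and 0.838 under those scalings) and 0.827 for fucose (0.777 and 0.853). Galactosyltransferases summed to 125 ± 0.694 FPKM with Bmi1 shRNA and 133 ± 3.84 FPKM in control; these groups did not overlap as deposited and did with upper quartile scaling. Over tested members alone, with the trend in GC content and length removed, the ratio of means was 0.956 for sialic acid, with no overlap, and 1.01 for fucose, with overlapping groups. For galactose it was 1.09, with all 3 Bmi1 shRNA libraries above control, so that its direction turned. As deposited, these 3 ratios over tested members were 0.815, 0.834 and 0.941. The GlcNAc extension sum was then lower in all 3 Bmi1 shRNA libraries (ratio 0.923), where the groups overlapped as deposited (0.936). This alternative was chosen after seeing the data. No test was run on these sums, and ST3GAL1 alone made up 13.7% ± 1.44 of the sialyltransferase sum with Bmi1 shRNA and 22.9% ± 0.985 in control.

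**Figure D5:**
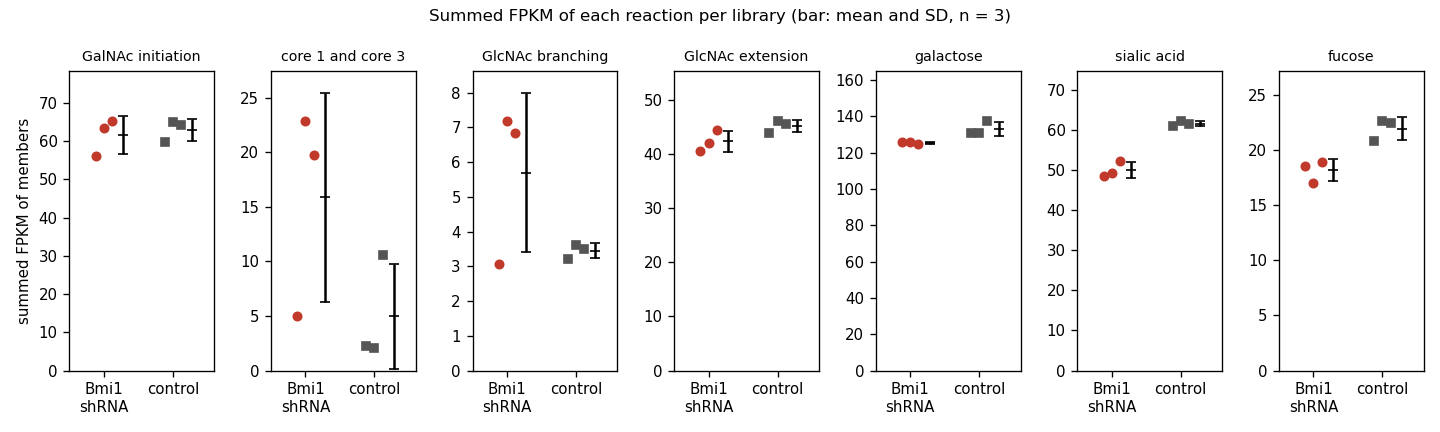
Summed FPKM of the members of each reaction in each Bmi1 shRNA library (circles, left) and control library (squares, right), with the mean and SD (n = 3) beside them, and vertical axes that start at 0. The sialic acid and fucose sums, as deposited, are lower in all 3 Bmi1 shRNA libraries (with the GC trend removed the fucose sums overlap), and the core 1 and core 3 sum, which C1GALT1C1 dominates, overlaps between the groups.

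Genes that supply these enzymes were taken from lists of the pathway. Over all tested rows 28.6% rose and 28.5% fell, or 19.1% and 20.6% with the GC trend removed. Of 23 tested genes for sugar nucleotide synthesis, 10 rose (43.5%) and 4 fell (17.4%), and with the GC trend removed 7 were higher and 2 lower. UAP1, which makes UDP-GlcNAc, averaged 10.1 ± 0.635 FPKM with Bmi1 shRNA and 5.10 ± 0.295 FPKM in control (SD, n = 3 each; limma adjusted p = 0.000333), and CMAS, which activates sialic acid, 24.0 ± 0.228 and 15.2 ± 1.05 FPKM (adjusted p = 0.000579). PGM3, of the UDP-GlcNAc pathway, averaged 2.37 ± 0.0743 and 1.16 ± 0.118 FPKM (adjusted p = 0.000651). Of 11 tested Golgi carriers of the SLC35 family, 2 rose and 2 fell (18.2% each), or 2 and 1 with the trend removed. SLC35A1, which carries activated sialic acid into the Golgi, averaged 11.7 ± 0.654 FPKM with Bmi1 shRNA and 5.62 ± 0.561 FPKM in control (log2 fold change 0.94, adjusted p = 0.000423; with the trend removed 0.30, adjusted p = 0.0530). SLC35B4 fell (log2 fold change -0.71) and SLC35A5 rose (0.57, or 0.18 and not called with the trend removed, adjusted p = 0.106).

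The remaining lists had 3 to 18 tested genes, and their counts are read against the 28.6% of all tested rows that rose and the 28.5% that fell. Counts with the GC trend removed are read against 19.1% of all rows higher and 20.6% lower. The Golgi tethering list also held ATP6V0A2 and TMEM165, which are not tethers. Of its 18 tested genes 7 rose (38.9%) and 6 fell (33.3%, ATP6V0A2 among them), or 6 and 3 with the GC trend removed. Those that rose include USO1, a vesicle tether, at 7.20 ± 0.170 FPKM with Bmi1 shRNA and 2.90 ± 0.558 FPKM in control (SD, n = 3 each; log2 fold change 1.08, limma adjusted p = 0.000609), BLZF1 (log2 fold change 0.76) and COG5 (0.56). The list of N-glycan trimming and branching also held the fucosidases FUCA1 and FUCA2. Of its 11 tested genes 2 rose (18.2%) and 4 fell (36.4%, FUCA1 among them), or 3 and 3 with the trend removed. MAN1A1 was at 0.49, MGAT2 at -0.35 and MAN1B1 at -0.22 on the log2 scale. MAN1B1 was not called with the GC trend removed (0.04, limma adjusted p = 0.575). Of 11 tested transferases outside the naming rule 1 rose (9.09%) and 3 fell (27.3%), or 4 and 1 with the trend removed. LFNG, which elongates O-fucose on NOTCH, rose (log2 fold change 0.57) and POFUT1, which attaches that fucose, fell (-0.61), as did B4GALNT3 (-0.53). B4GALNT3 was not called with the trend removed (adjusted p = 0.0674). Of 9 tested genes of glycan breakdown 1 rose (11.1%) and 5 fell (55.6%), or 1 and 2 with the trend removed, with NEU1, the lysosomal sialidase, at -0.30, AGA at 0.42 and CTSA at -0.42. AGA was at -0.02 with the trend removed (adjusted p = 0.852). Of the mucins that carry O-glycans 3 were tested, and MUC3A and MUC20 fell (log2 fold change -0.55 and -0.50, adjusted p = 0.00186 and 0.00247) while MUC13, the most abundant, did not pass (adjusted p = 0.166). With the trend removed 1 of the 3 was lower, and MUC3A was not called (-0.13, adjusted p = 0.0942).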

How the data were processed

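The authors deposited 1 table of FPKM per gene for 6 libraries, in which a sum over rows ran from 332910 to 360371. Bowtie 0.12.2, HISAT2 2.0 and StringTie 1.3.0 are named per the submitters' processing notes, without their roles, beside the mouse build mm8, although 19870 of 27238 row names are human gene symbols, so the build is not settled. The labels' extraction protocol also names adipose tissue, which these samples are not. Columns Sc and Sh were taken as scrambled and Bmi1 shRNA. The depth of the libraries is unknown: among 1787 low rows, the most frequent ratio between control replicate 1 and another library covered at most 1.06%, so no steps of whole reads were found and count tests were not used.

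FPKM were tested as log2(FPKM + 1) with limma 3.58.1 in R 4.3.3 over 11016 rows averaging at least 1 FPKM, with group as the sole term, a variance trend and Benjamini-Hochberg adjustment over all rows; a row was called at an adjusted p under 0.05. Fold changes on this scale understate the change of low genes. The steps were checked on simulated data. GC content and length came from the longest coding transcript in GENCODE 29, and the trend removed was a natural spline with 5 degrees of freedom each. Members, lists and tests were chosen with earlier results of these data known. By rule, library values were given for BMI1, for called members that changed by at least 0.5 on the log2 scale and, in each reaction, for the 4 smallest p and the 2 highest means, and in pathway lists up to 3 genes with the smallest p were named; others were chosen after their values were seen. Alternatives covered pseudocount, filter, scaling, variance prior, GC content, replicate block and leaving out libraries. Reaction sums with the GC trend removed, and the limit on exon overlap of printed windows, were added after seeing the data.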

Additional observations from a re-analysis of the deposited data

How the results depend on the processing

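BMI1 stayed called lower under each alternative that tested it (log2 fold change from -1.79 to -1.22). With rows averaging at least 5 FPKM, 3478 of 5641 tested rows were called, fewer because fewer rows were tested. Of 22 members tested there, 4 were called higher and 10 lower, and BMI1 was not among the rows tested. With the trend in GC content and length removed 4071 of 10264 tested rows were called, with 9 members higher and 10 lower. With that step and a replicate block 3144 were called, with 8 members higher and 9 lower. Leaving out 1 library at a time gave 5250 to 6111 called rows, 8 to 10 members higher, 13 to 15 lower, and BMI1 from -1.58 to -1.22. Libraries scaled to a total of 1000000 had a median log2 fold change of -0.10 over all rows.

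Same-numbered libraries did not deviate together (correlations of 0.00374, -0.0791 and -0.0234 over genes), so replicate numbers are taken as names. The replicate block called 5658 rows, with 8 members higher and 14 lower; B4GALT2 (adjusted p = 0.0522) and GALNT11 (0.122) lost their call. With no filter on low values GALNT10 (adjusted p = 0.0835), GALNT11 (0.0765) and ST6GALNAC6 (0.112) lost theirs.

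Signs turned mostly in members not called. With the GC and length trend removed, with or without the replicate block, the log2 fold change was -0.072 for GALNT4, 0.256 for B3GNT9, 0.030 for B3GNTL1, -0.199 for B3GNT5, -0.108 for B3GALT2, 0.113 for B3GALT5, 0.244 for ST3GAL2, 0.166 for FUT4, 0.164 for FUT11 and -0.162 for FUT8. B3GNT5 and B3GALT2 had been called higher. Scaling to one total gave -0.063 for B3GALT6 and -0.060 for ST3GAL4, upper quartile scaling 0.033 for B3GNT9 and 0.024 for FUT11, and quantile normalization 0.0053 for B3GNT9. Leaving out 1 library gave ranges across 0: -0.0524 to 0.045 for B3GNT9, -0.0298 to 0.0777 for ST3GAL4, -0.233 to 0.376 for ST6GAL1, -0.166 to 0.157 for FUT11 and -0.0072 to 0.162 for FUT8. The cause was not tested. No count model was run, since the table holds no counts.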
